A study of Mus musculus with 12 samples.

Results

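Metabotropic glutamate receptors are slow, G protein-coupled receptors for glutamate. The 6 genes described here, Grm2, Grm3, Grm4, Grm5, Grm7 and Grm8, were taken by their gene names in the RNA tables, 6 of 23953 genes. No measured value entered that rule, but earlier results of these data were known when the genes were chosen. Their 5-hydroxymethylcytosine (5hmC) and RNA were measured in the hippocampus of male C57BL/6 mice. The stress group (6 mice) was restrained for 30 min, left alone in a clean cage for 1 h and then collected, with restraint 2 h after lights on. The control group (5 mice) was not restrained and, per the labels, was taken from the cage when the restraint of the other mice began. Both groups were briefly anaesthetised with isoflurane, and stress and the time of collection cannot be told apart. For age, the tags say postnatal day 28 whereas the protocol says 7 weeks. Each 5hmC library came from pooled DNA of 1 or 2 mice, with 3 libraries and 3 peak lists a group, and RNA of the same pools was deposited as 1 table per group.

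5hmC is made from methylated cytosine by the TET enzymes and is abundant in the bodies of neuronal genes. The receptors fall into classes by sequence and G protein. Group I, here Grm5, couples to Gq and phospholipase C, sits mostly around the postsynaptic density and drives a form of long-term depression in the hippocampus. Group II, Grm2 and Grm3, and group III, Grm4, Grm7 and Grm8, couple to Gi/o, lower cyclic AMP and mostly limit transmitter release, with Grm3 also present on astrocytes.

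The 250 bases before the start site of Grm2 (GRCm38.p6 chr9:106656110-106656359, minus strand) and of Grm3 (GRCm38.p6 chr5:9725353-9725602, minus strand) are printed as examples. Both genes had a recurrent 5hmC peak in their bodies and none at this place, which also held for Grm4, Grm5 and Grm7. No promoter sequence was at hand for Grm4 and Grm5. Sequences are from RefSeq, 5′ to 3′ on the coding strand, and capitals mark each CG, the pair in which cytosine is mostly methylated.
Grm2: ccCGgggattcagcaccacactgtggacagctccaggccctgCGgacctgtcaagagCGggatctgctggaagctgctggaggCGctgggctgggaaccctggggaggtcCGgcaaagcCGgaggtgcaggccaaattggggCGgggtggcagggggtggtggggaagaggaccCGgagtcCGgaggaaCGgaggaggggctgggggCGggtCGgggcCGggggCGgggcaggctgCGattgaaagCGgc
Grm3: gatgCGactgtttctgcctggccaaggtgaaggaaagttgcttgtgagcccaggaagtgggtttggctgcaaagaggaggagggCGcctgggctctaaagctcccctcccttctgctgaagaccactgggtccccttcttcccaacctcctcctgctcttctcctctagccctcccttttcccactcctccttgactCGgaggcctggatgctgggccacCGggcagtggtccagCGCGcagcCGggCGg
The Grm2 stretch holds 16 CG and the Grm3 stretch 8. Of 32851 promoter entries in the table, 25.4% hold at least as many CG as Grm2 and 43.0% at least as many as Grm3, with a median of 6. No library had a peak within 1 kb of any start site of the 6 genes (0 of 6, against 15.4% of all 23893 genes with a peak there in any list). The nearest peak centre, inside or outside the body, lay 4.23 kb from the start of Grm4 and 5.40 kb from that of Grm2. It was 7.57 kb for Grm8, 7.68 kb for Grm3, 123 kb for Grm7 and 176 kb for Grm5. For Grm8 and Grm3 this peak lay outside the body, and the nearest region inside was centred 22.7 kb and 7.96 kb from the start.

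The peak lists differed in length within both groups. Stress replicates 1, 2 and 3 had 15195, 27797 and 31654 peaks, and control replicates 1, 2 and 3 had 17186, 27916 and 16327. Read counts behind the peaks were not used here, so how far list length follows read depth is not known. Peak density is therefore given per Mb of gene body and also as a relative density, the density of the gene divided by that of all genes of at least 10 kb in the same library. A relative density of 1 means the average of those genes. The pools hold different mice, and p-values measure the spread between these 3 and 3 pools. Markers of the labelled tissue were present: 6 of 6 dentate granule, 4 of 4 CA1 and 4 of 4 CA3 marker genes averaged 1 FPKM or more.

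Grm5, the group I receptor, spans 551 kb on chromosome 7 (mm9 chr7:94732678-95283573, plus strand). It had 1, 1 and 3 peaks in the stress libraries and 1, 4 and 1 in the control libraries. Every library had at least 1 peak in Grm5 and the groups overlapped. Density was 3.03 ± 2.1 peaks per Mb in stress and 3.63 ± 3.14 in control (SD, n = 3 each; exact permutation p = 1). The relative density lay between 0.111 and 0.447, below the average of 1 in all 6 libraries. The peaks formed 5 regions. The region at chr7:95222509-95223979 (1471 bp) had a peak in stress replicate 3 and in all 3 control libraries, and covers exon 9 of 10, of 940 bp. The region at chr7:95278841-95279917 (1077 bp) had a peak in all 3 stress libraries and in control replicate 2, and lies inside the last exon, of 5083 bp. The 2 recurrent regions thus lay near the end of the gene, at 89.0% and 99.2% of its length, and leaned to opposite groups without being exclusive to either. The other 3 regions were intronic, each from 1 library.

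Grm2, a presynaptic autoreceptor, is short, 11.6 kb on chromosome 9 (mm9 chr9:106546866-106558440, minus strand). It had exactly 1 peak in each of the 6 libraries, all in 1 region at chr9:106552257-106553821 (1565 bp). Of all 74450 regions in the 6 lists, 1.63% had a peak in all 6 libraries. The region covers exon 3 of 6 (838 bp) and parts of introns 2 and 3. Peak length here was 1377, 1154 and 1440 bp in stress and 1103, 1565 and 903 bp in control, so the groups overlapped. The rank of this peak by the authors' score, from the top of each list, ranged from 4.96% in control replicate 2 to 87.5% in stress replicate 1. Coverage of the gene was 11.4 ± 1.3% in stress and 10.3 ± 2.9% in control (SD, n = 3; exact permutation p = 0.6). With 1 peak in a short body, Grm2 stood at 86.4 peaks per Mb, the 99.2nd percentile of the 13987 genes of at least 10 kb, a value that rests on that single region. With lists of equal length or with the higher-scoring 50% of each list, the Grm2 difference went from 0 to -28.8 peaks per Mb (exact permutation p = 1), so the peak was not among the higher-scoring ones in every library.

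Grm3, which acts on neurons and astrocytes, spans 240 kb on chromosome 5 (mm9 chr5:9485236-9725352, minus strand). It had 2, 2 and 3 peaks in stress and 2, 2 and 2 in control, and only stress replicate 3 stood above the rest. Relative density was 0.702 ± 0.208 in stress and 0.733 ± 0.193 in control (SD, n = 3; exact permutation p = 0.9). Coverage of the body was 0.791%, 0.799% and 1.23% in stress and 0.668%, 0.784% and 0.775% in control. Coverage was higher in every stress than in every control library, which 7.49% of 12602 genes with a peak showed, and 1.04% showed the opposite. The exact permutation p of 0.1 is the smallest that 3 against 3 libraries allow, and after Benjamini-Hochberg adjustment it was 1. The difference of 0.196 percentage points fell to 0.114 with lists of equal length (exact permutation p = 0.5), to 0.0934 with the higher-scoring 50% of each list (p = 0.9) and to 0.0526 without stress replicate 3 (p = 0.4). The lowest stress value exceeded the highest control value by less than the SD of either group. Median peak length was 976, 1062 and 1046 bp in the stress lists and 896, 965 and 935 bp in the control lists, longer in every stress list, and its part in the coverage of Grm3 was not tested. Its recurrent region, chr5:9569730-9571113 (1384 bp), had a peak in all libraries but control replicate 1 and covers exon 3 of 6 (856 bp). The other 5 regions were intronic, with peaks in at most 2 libraries. One of them, at 70.6% of the length, had a peak in stress replicates 1 and 3 and in no control library.

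Grm4, a group III receptor of presynaptic terminals known best from cerebellum and thalamus, spans 81.1 kb on chromosome 17 (mm9 chr17:27559333-27640478, minus strand). It had 1, 5 and 2 peaks in stress and 3, 2 and 2 in control. Stress replicate 2 was the highest of the 6 and stress replicate 1 the lowest. Density was 32.9 ± 25.7 peaks per Mb in stress and 28.8 ± 7.1 in control (SD, n = 3; exact permutation p = 1), and without stress replicate 2 the difference turned from 4.11 to -10.3 peaks per Mb. Its relative density was 1.33 to 3.77, above the average of 1 in all 6 libraries. Of its 6 regions, 3 had a peak in 3 or more libraries. The most recurrent, chr17:27571199-27572859 (1661 bp), had a peak in stress replicates 2 and 3 and control replicates 1 and 2 and covers exon 8 of 9 (936 bp). Another, with a peak in stress replicate 2 and control replicate 2, overlaps the last exon of the transcript NM_001291045 by 930 bp.

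Grm7, a receptor of the presynaptic active zone with low affinity for glutamate, spans 922 kb on chromosome 6 (mm9 chr6:110595592-111517224, plus strand). It had 1, 2 and 1 peaks in stress and 0, 5 and 3 in control. Control replicates 2 and 3 were the highest and control replicate 1 the lowest, so the stress values lay inside the control range. Density was 1.45 ± 0.63 peaks per Mb in stress and 2.89 ± 2.73 in control (SD, n = 3; exact permutation p = 0.6). The difference of -1.45 rested on single control libraries: it was -2.89 without control replicate 1, with all stress values below the remaining control values, and -0.181 without control replicate 2. With lists of equal length it was -0.362. Of 9 regions, 8 had a peak in 1 library. The exception, chr6:111314174-111315090 (917 bp), lies in intron 8 and had a peak in all 3 stress libraries and in control replicate 3.

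Grm8, a group III receptor of presynaptic terminals, spans 859 kb on chromosome 6 (mm9 chr6:27225121-28084369, minus strand). It had 0, 1 and 0 peaks in stress and 0, 3 and 0 in control. Stress replicates 1 and 3 and control replicates 1 and 3 had none, although stress replicate 3 had the longest list. All 4 peaks were intronic and each was found in 1 library. A 0 here means that no peak passed the authors' threshold, not that 5hmC was absent.

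**Figure D1:**
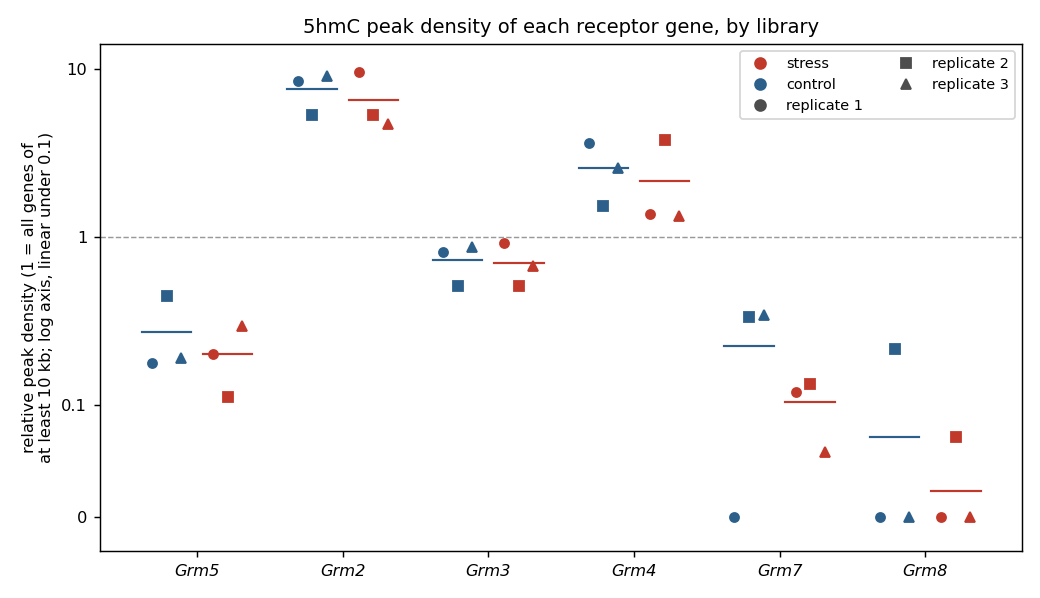
Relative 5hmC peak density of each receptor gene (y axis, log scale, linear under 0.1; 1 is the density over all genes of at least 10 kb in the same library). Points are libraries (circle, square and triangle for replicates 1, 2 and 3; blue control, red stress), lines are group means of 3, and the groups overlap for each of the 6 genes, with Grm2 and Grm4 above 1 and the other 4 below.

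**Figure D2:**
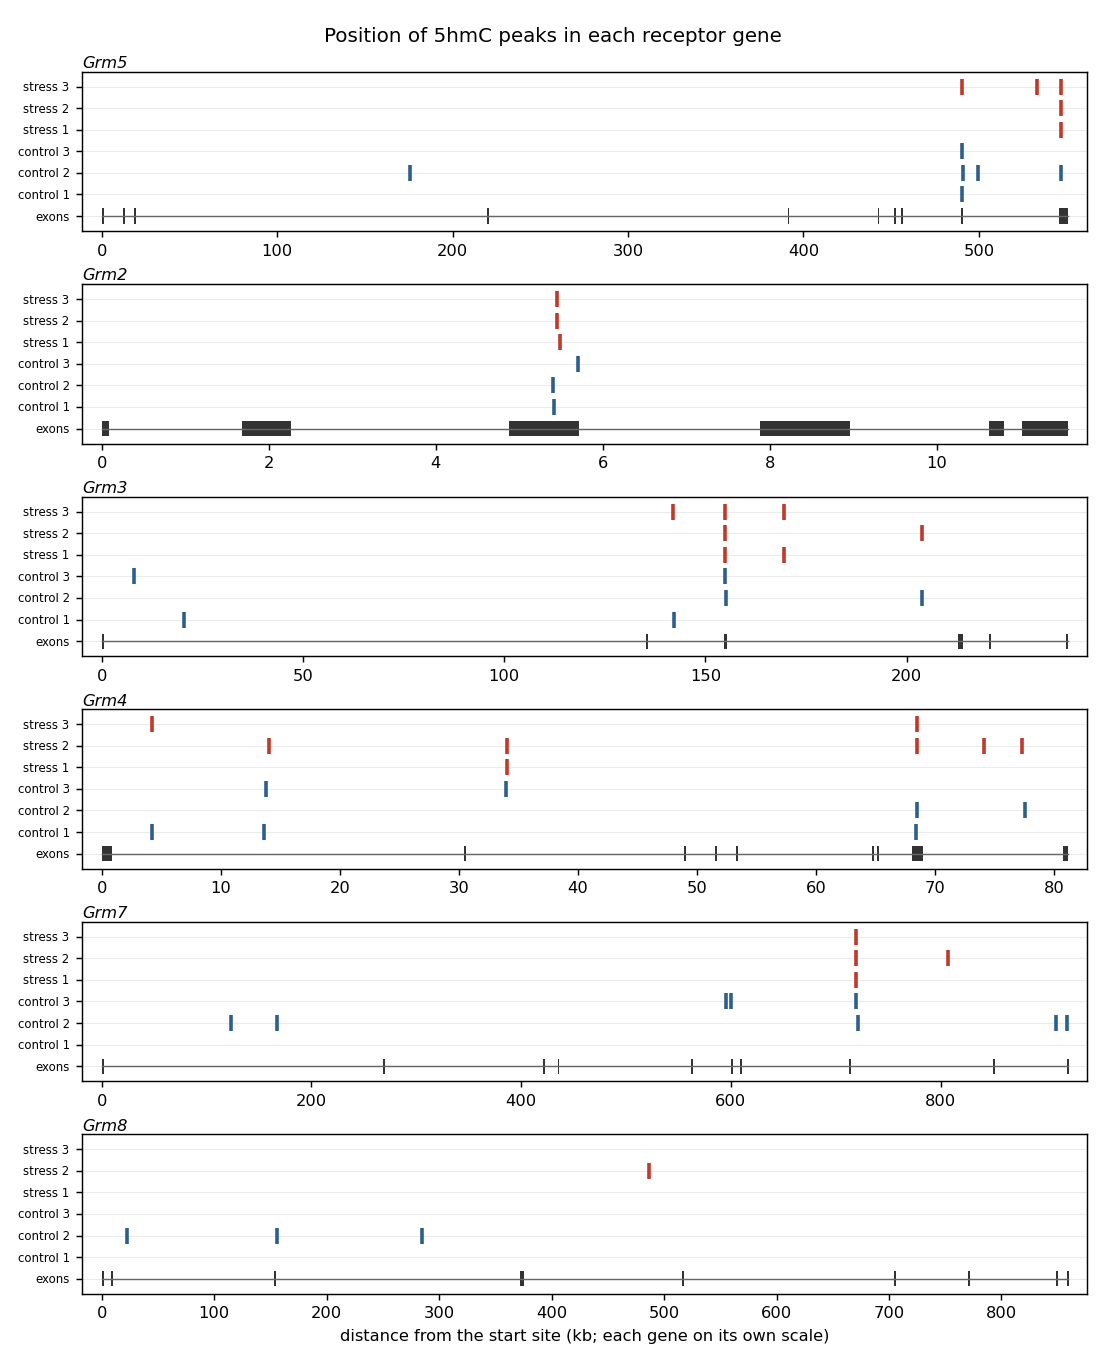
Centres of 5hmC peaks (ticks; red stress, blue control) along each receptor gene, in kb from the start site, above the exons (dark boxes) of its transcript of longest span. Columns of ticks at an exon are seen in Grm5 (exon 9 and the last exon), Grm2, Grm3 and Grm4, and intronic columns in Grm4 and Grm7, while Grm8 has 4 scattered ticks.

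The longest receptor genes, Grm5, Grm7 and Grm8, held fewer peaks in each list than the average density would give. Together they span 2332 kb and had 2, 4 and 4 peaks in the stress libraries and 1, 12 and 4 in the control libraries. At the average density of genes of at least 10 kb, the same length would have held 21.1, 38.1 and 43.2 peaks in stress and 23.9, 37.9 and 22.3 in control. Control replicate 2 held most of the control peaks, at a relative density of 0.317, and control replicate 1 the fewest, at 0.0419. Set among the 1682 genes of at least 100 kb whose mean reached 1 FPKM, whose median relative density was 1.09, Grm8 (0.0582) had 124 genes below it, Grm7 (0.163) had 172, Grm5 (0.25) had 217 and Grm3 (0.677) had 467. These places are the 7.40th, 10.3rd, 12.9th and 27.8th percentiles, so low values like those of Grm8 were shared by many long expressed genes. Among genes of at least 10 kb in single lists, Grm5 stood at the 48.0th to 64.5th percentile. Grm7 stood there at the 31.4th to 64.9th and Grm8 at the 23.6th to 51.8th. Of these 13987 genes, 3888 had no peak in any list. Genes are not replicates, and no test was made of these places.

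**Figure D3:**
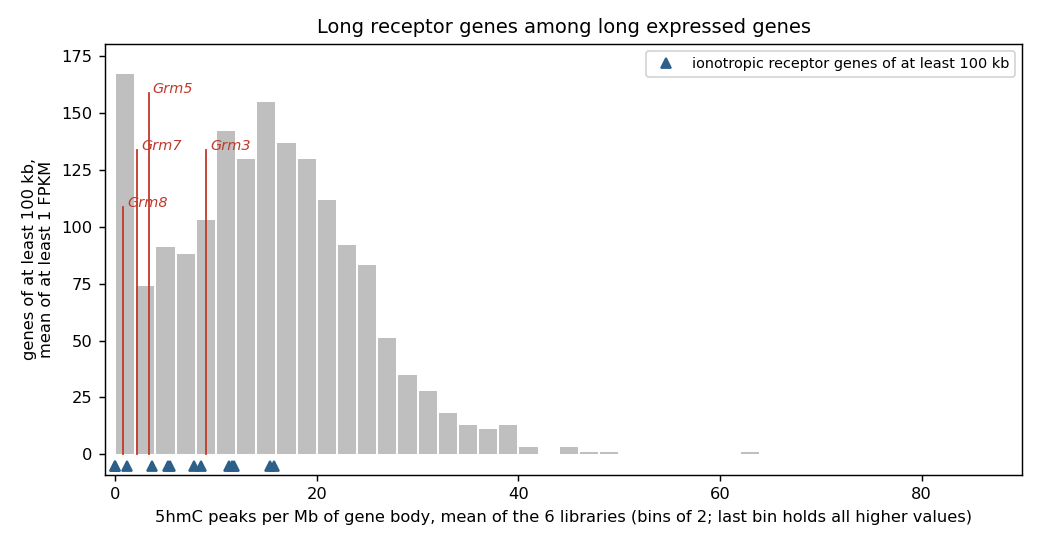
Number of genes of at least 100 kb whose mean reached 1 FPKM (grey bars) by 5hmC peaks per Mb, mean of the 6 libraries. Red lines mark Grm8, Grm7, Grm5 and Grm3, at 0.776, 2.17, 3.33 and 9.02 peaks per Mb, and blue triangles the ionotropic receptor genes of that length, which spread from 0 to 15.7.

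Ionotropic glutamate receptors, the ligand-gated channels for the same transmitter, are the nearest comparison. Over 17 ionotropic genes of at least 10 kb the relative density was 0.565, and over the 6 metabotropic genes 0.286, both below 1. Genes well below 1 and genes well above it occurred in both families, the latter being Grm2 (6.48) and Grm4 (2.31) here and, for example, Grin1 (3.13) and Grin2d (1.83) among NMDA receptor subunits. Gria3 and Gria4, AMPA receptor subunits, had no peak in 277 and 378 kb, and Grik2, a kainate receptor subunit, stood at 0.0907. Grin2b (1.16) and Grik4 (1.18) stood near the average. Of the 6 metabotropic genes, 4 had a peak in all 6 libraries, as did 6 of the 17 ionotropic genes and 15.5% of all genes of at least 10 kb. Among genes of at least 100 kb it was 1248 of 2341, and 1035 of the 1682 that were expressed. These were Grm2, Grm3, Grm4 and Grm5, with bodies of 11.6 to 551 kb.

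Most regions of the receptor genes were seen once. Of 31 regions, 18 (58.1%) had a peak in 1 library, compared with 56.9% of all regions. A peak in 3 or more libraries was found for 8 of 31, 25.8%, near the 21.9% of all regions. Of the 6 regions with a peak in 4 or more libraries, 5 lay on an exon, and of the 18 from 1 library, 2 did. The 2 regions with a peak in 3 libraries, both in Grm4, were intronic, so this share depends on the cut and rests on few regions. Over all gene-body regions the share on an exon was 42.1% with 4 or more libraries and 32.0% with 1 library. It was 35.1% for all 43593 regions and 25.8% (8 of 31) for the receptors. Exons make up 1.04% of the receptor gene bodies. Peaks were near 1 kb long, so a peak centred in an intron can still touch an exon.

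Long internal exons were examined after the regions had been seen, so their values are a description. The 6 genes have 10 internal exons of at least 800 bp, and 4 of them (40%) were under a peak in 4 or more libraries, as were 9.16% of 1724 such exons in all genes. These 4 are exon 3 of Grm2, exon 3 of Grm3, exon 8 of Grm4 and exon 9 of Grm5. The other 6 (60%) had no peak in any library, as did 66.1% of all such exons, including exon 4 of Grm2 (1076 bp), exon 4 of Grm3 (1067 bp), exon 8 of Grm7 (936 bp) and exon 9 of Grm8 (936 bp). Exon 8 of Grm4, under a peak in 4 libraries, and exon 8 of Grm7, under none, have the same length of 936 bp.

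For none of the 6 genes did the test call a difference in peak density between stress and control. Density was higher in every stress than in every control library for 0 of 6 genes (2.79% of the 12602 genes with a peak) and lower for 0 of 6 (0.603%). On the relative scale the counts were again 0 and 0, against 4.4% and 3.61%. Exact permutation p-values were 0.6 to 1 for density and 0.4 to 1 for relative density, and all were 1 after Benjamini-Hochberg adjustment. With 3 libraries a group no p can fall below 0.1, so a p above it does not show that densities were equal. No region of the 6 genes had a peak in all 3 libraries of 1 group and none of the other. Of all genes with a peak, 4.63% held a stress-only and 1.24% a control-only region. With 6 genes and shares this low, a count of 0 does not set the receptors apart.

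By a fixed measure of likeness, Pearson's r of relative density over the 6 libraries among 335 genes of at least 100 kb with 3 or more peaks in every library, Grm2 was most like Grik1 (r = 0.98) and Atf6 (0.97). Grm3 was most like Man1a2 (0.99) and Ube2e2 (0.98), Grm4 like Kif6 (0.89) and Psd3 (0.85), and Grm5 like Ext1 (0.95) and Kif26b (0.94). Grm2, with 1 peak in every list, follows only the inverse of list length, and Grm3, with 2 peaks in all lists but 1, nearly so, so their r say little beyond list length. Those of Grm4 and Grm5 were picked as the 2 highest of 335 candidates over only 6 shared libraries, which raises r by itself. Grm5 also rests on only 11 peaks in all. All these values are descriptions, with no test.

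The RNA tables listed all 6 receptors above 1 FPKM (a level per length of transcript that is scaled to the whole table). Each group has 1 table and no replicate values, so differences have no error and no p, and in whole hippocampus fewer cells of a type and less RNA per cell cannot be told apart. In the control table Grm5 was highest at 22.2 FPKM, followed by Grm3 at 11.5, Grm7 at 7.17, Grm2 at 4.30, Grm4 at 1.68 and Grm8 at 1.15. In the stress table the order was the same: Grm5 stood at 24.5 FPKM, Grm3 at 11.8, Grm7 at 6.79, Grm2 at 4.04, Grm4 at 2.92 and Grm8 at 1.57. Because no spread is known, neighbours in this order cannot be separated.

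Grm4 had the largest difference of the 6, with log2((stress + 1)/(control + 1)) = 0.55, or 1.46-fold, rank 174 of the 11071 genes that averaged 1 FPKM or more. On the same log2 scale Grm8 stood at 0.25, Grm5 at 0.14, Grm3 at 0.03, Grm7 at -0.07 and Grm2 at -0.07, around a median of all genes of 0.08. Grm3 thus lay below that median although its raw value was higher. At least 1.25-fold higher was 1 of 6 (Grm4), against 7.71% of all genes (with a pseudocount of 0.1, Grm4 stood at 0.76 and Grm8 at 0.41, which put Grm8 past that fold too), and at least 1.25-fold lower was 0 of 6, against 3.52%. No receptor differed by 2-fold or more in either direction, as 0.307% of genes did upward and 0.289% downward. Grm4 and Grm8 were also the lowest of the 6 in level in both tables.

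Cell type markers differed between the same tables. The summed level of the 6 thalamus markers was 29.8 FPKM in control and 38.4 in stress, with 3 of 6 at least 1.25-fold higher, Prkcd at 0.56 on the log2 scale being the highest and Lef1 at -0.25 the lowest. The 5 choroid plexus markers above the filter summed to 231 FPKM in control and 63.9 in stress, all 5 lower, with Ttr at -1.85. Astrocyte markers summed to 556 and 644, with 1 of 8 at least 1.25-fold higher, and oligodendrocyte markers to 1505 and 1320, with 3 of 9 at least 1.25-fold lower. The part of tissue makeup in the values of Grm4, Grm3 and the other receptors was not tested.

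Grm5 has 2 transcripts in the tables, which differ by a 96 bp exon (exon 10 of 11 in NM_001143834) near the end of the coding sequence, the difference between the receptor forms known as mGluR5a and mGluR5b. The longer transcript, NM_001143834, was listed at 18.4 FPKM in control and 21.7 in stress. The shorter, NM_001081414, was listed at 3.80 and 2.81. The longer form carried 82.9% of Grm5 in control and 88.5% in stress, so it dominated in both. The recurrent regions on exon 9 and on the last exon lie in sequence that both transcripts share. The 96 bp exon, at chr7:95264703-95264798, had no peak, and the region nearest to it, at chr7:95265220-95265993, came from stress replicate 3 alone. For Grm4, practically all signal was assigned to NM_001291045, whose last exons differ from those of NM_001013385.

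**Figure D4:**
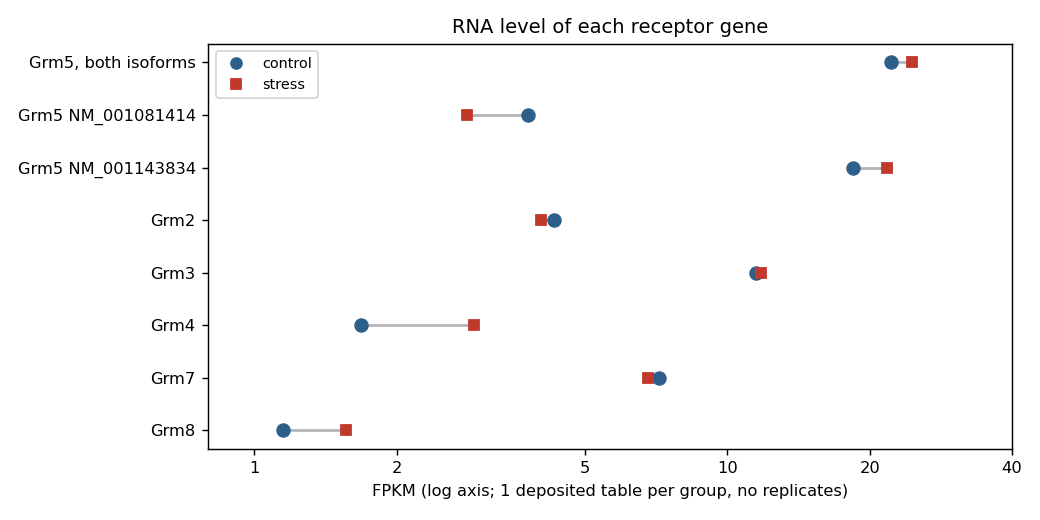
RNA level in FPKM (log axis) of each receptor gene and of both Grm5 transcripts in the control table (blue circles) and the stress table (red squares), 1 value each with no replicate error. Grm4 shows the widest gap of the genes, 1.68 to 2.92 FPKM, and the Grm5 transcripts move in opposite directions.

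Partners and effectors of the receptors were taken from 6 lists of pathway genes, chosen with earlier results of these data known. Of 115 genes above the filter, 5 were at least 1.25-fold higher in the stress table and 0 lower, against 7.71% and 3.52% of all genes. Postsynaptic Homer proteins, which tie Grm5 to calcium stores, were listed at 19.5 FPKM in control and 21.5 in stress for Homer1, 6.95 and 8.08 for Homer2, and 4.66 and 5.68 for Homer3. Elfn2, an adhesion protein that binds group III receptors across the synapse, was at 9.92 and 12.8 (log2 difference 0.34), and Elfn1 at 2.69 and 3.33 (0.23). Pick1, which binds the tail of Grm7, was the lowest of the 28 scaffold genes at -0.24, and Cav1 the highest at 0.49. Of the scaffolds, Cav1 and Elfn2 were past 1.25-fold.

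Among 21 effectors of receptor-dependent depression, Arc, an activity-induced gene whose protein removes AMPA receptors from synapses, was the only one past 1.25-fold, at 10.4 FPKM in control and 21.4 in stress (0.98). Of 14 Gq pathway genes Plcb3 was past 1.25-fold (0.38), and of 25 Gi/o genes Gnai3 (0.32). None of 16 ionotropic receptors or 11 genes of glutamate uptake, release and synthesis was past it. Grid1 (0.27) was the highest ionotropic gene. List medians ran from 0.10 to 0.16, each above the 0.08 of all genes.

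Several partners of the receptors held a region found in 1 group only. Of 99 pathway genes with a peak, 8 (8.08%) had a stress-only region, against 4.63% of all genes with a peak: Grid1, Grik4, Plcb4, Itpr1, Prkca, Dagla, Homer2 and Dlgap1. A control-only region was found in 4 (4.04%, against 1.24%): Plcb1, Gnai2, Adcy5 and Kcnj6. Itpr1 is the calcium-release channel downstream of Grm5, and Dagla makes the endocannabinoid that Grm5 activity releases. Plcb1, of the same Gq and phospholipase C list as these stress-only genes, held a control-only region, so the list did not lean to stress alone. Long genes hold more regions, and these shares were not adjusted for length.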

How the data were processed

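The authors deposited a separate mm9 peak list for every 5hmC library, in which each peak has a score. Peak names have the form MACS gives, per the deposited lists. No version of it is given in the sources used here. Bowtie 0.12.9 is named in the submitters' processing notes, as are TopHat 1.0.12, Cufflinks 2.1.1 and Cuffdiff 2.1.1 for RNA. The authors deposited 1 FPKM table per group, with gene models on mm9. How the 3 RNA libraries of a group were combined is not stated in the labels. In 2703 of 12857 transcripts with a mean of at least 1 FPKM, among them Grm3 in the stress table, the deposited FPKM lay outside its own interval, so intervals were not used.

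A peak counted for a gene when it overlapped the union of its transcripts by at least 1 bp. Overlapping peaks of the 6 lists were merged into regions. Scores ranked peaks within a list only. Densities were compared with a two-sided exact permutation test over all 20 assignments of 6 libraries (smallest p 0.1), adjusted by Benjamini-Hochberg over 12602 genes with a peak. Transcript FPKM were summed per gene and compared with a pseudocount of 1, for the 11071 genes averaging 1 FPKM or more, which understates differences of low genes. RNA depth is unknown, and the deposited coverage per FPKM, which follows it, was 8.14 for control and 9.22 for stress. The 6 genes are named in full. From each pathway list the naming rule took the 2 genes with the highest and the 2 with the lowest RNA difference, genes with a region found in 1 group only, Homer1 to Homer3, Elfn1 and Elfn2, and the text gives part of them. Grin1, Grin2b, Grin2d, Gria3 and Grik2 were named after their values were seen. The members and lists were chosen with earlier results of these data known. The exact test was checked on random values, and the counting of peaks and stress-only regions on the deposited lists with added peaks. The other steps were not tested in this way. Replicate numbers are not stated to pair the pools and were not used as pairs in the main tests. Python 3.11.15, numpy 2.4.6, pandas 2.3.3, scipy 1.17.1 and matplotlib 3.10.9 were used.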

Additional observations from a re-analysis of the deposited data

How the results depend on the processing

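With all 6 libraries the smallest exact p is 0.1, so no density or coverage difference could pass 0.05 under these alternatives. With every list shortened to the length of the shortest by score, the Grm4 difference became -8.22 peaks per Mb, and with the higher-scoring 50% of each list it was -8.22 as well. Bodies extended by 5 kb put the Grm2 density difference at -15.45 peaks per Mb. The 2 settings by score turned Grm2 coverage to -2.17 and -3.54 percentage points, and the second turned Grm5 coverage to 0.0408. Relative density turned Grm3 to -0.031 and Grm4 to -0.415. It gave -0.0295 and -0.397 on autosomes, and -0.0474 and -0.46 against genes of any length. The list lengths were divided out in these settings by construction. Leaving out 1 library at a time gave density differences of -10.3 to 14.4 peaks per Mb for Grm4, -1.82 to 1.21 for Grm5, -2.89 to -0.181 for Grm7 and -1.36 to 0.388 for Grm8. Coverage differences ran from -0.0893 to 2.77 percentage points for Grm2, -0.269 to 3.31 for Grm4, 0.0526 to 0.27 for Grm3, -0.145 to 0.158 for Grm5, -0.201 to 0.00309 for Grm7 and -0.145 to 0.0284 for Grm8. Genes of the 6 without overlap numbered 0 to 1, and regions in 1 group only 0 to 1. The percentage of all genes without overlap, 3.4 with all libraries, ran from 6.13 to 12.7, since fewer libraries need to be parted. With replicate number as a block, the Grm7 difference was -1.45 peaks per Mb (exact p = 0.5; smallest possible 0.25), and no gene was called. Deviations of same-numbered libraries correlated at 0.0079, 0.0379 and -0.0081 over 2095 genes, and those of differently numbered libraries at -0.0420 to 0.0296. Numbers were not treated as pairs in the main tests, although these values cannot show that pairing is absent. For RNA, centring on the median of all genes put Grm3 at -0.0517 on the log2 scale. Pathway genes at least 1.25-fold higher, 5 as reported, numbered 9 with a pseudocount of 0.1, 2 after centring and 9 with the most abundant isoform, which also gave 4 lower. The causes of these changes were not tested. With 3 pools a group and 1 RNA table a group, neither small 5hmC differences nor any RNA spread can be measured.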
